A study of Homo sapiens with 24 samples.

Results

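The libraries of 22, 28 and 30 h after elutriation, 3 of the 24 libraries of a K562 time series, were compared with those of 20, 24 and 34 h. They were selected on their measured FPKM values, in which they resembled each other more than the time points between them, so the values below describe these 6 libraries and no test was run. K562 is an established human chronic myeloid leukaemia cell line with erythroid features. All libraries held total RNA of synchronous cells, obtained by centrifugal elutriation, which separates cells by size, kept in RPMI with 10% bovine calf serum and P/S, and sampled every 2 h from 0 to 46 h. There was 1 library per time point, no untreated or replicate sample, and no label for a batch. The mean time of the 3 libraries was 26.7 h and that of the 3 reference libraries was 26.0 h.

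Synchronized cells pass through the cell cycle together, so periodic transcripts such as those of the replication and mitosis genes rise and fall over many hours, and neighbouring time points are normally alike. A library that departs from both of its neighbours and resembles a later one therefore stands out in a time series. The study called time points at which many genes depart at once STRIPEs. In this series its detection function named 16 and 18 h, visual inspection also named 32 h, and neither named 22, 28 or 30 h. Many human genes share sequence with others, through gene duplication, processed pseudogenes (copies of a spliced RNA pasted back into the genome), small RNAs carried inside introns, or readthrough transcripts that join neighbouring genes. Reads from such stretches can be assigned to more than 1 gene.

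The values were FPKM, fragment numbers scaled to transcript length and library size, and differences are means of log2(FPKM + 1) at 22, 28 and 30 h minus those at 20, 24 and 34 h, which understates the change of low genes. A gene was called higher or lower if it differed at least 1.5-fold on this scale and its 3 values lay beyond all 3 reference values. Of 12253 genes averaging 1 FPKM or more, 120 were called higher, 0.979% of the genes, and 95 were called lower, 0.775%. At 2-fold the counts were 40 and 37. The values of 2041 genes lay above the reference at any size and those of 984 lay below, 16.7% and 8.03% of the genes. The median difference of all genes was 0.03, and 77.8% of genes lay within 0.2 of no difference, so most transcripts had nearly the same level in both sets. At the edge of the lower calls, DGAT1 was inside at -0.60 with 16.08, 18.69 and 21.003 FPKM at 22, 28 and 30 h, and TSR3 was just outside at -0.58.

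The libraries of 28 and 30 h were the closest pair among those from 20 to 34 h, with an SD of 0.19 over genes of their log2 difference. The SD between 22 and 28 h was 0.23 and that between 22 and 30 h was 0.26, whereas the 9 pairs of 1 library from each set ranged from 0.28 to 0.36. The pairs within 20, 24 and 34 h ranged from 0.21 to 0.28. The Kolmogorov–Smirnov (KS) distance between Z-score distributions, the study's measure of a departing time point, was 0.0321 for 28 and 30 h, 0.0751 for 22 and 28 h, and 0.0753 to 0.158 between the sets. The ranges of the KS distance within and between the sets thus nearly met.

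The total of all FPKM values was 500802 to 520382 at 22, 28 and 30 h and 464697 to 477199 at 20, 24 and 34 h. The 100 most abundant genes took 21.2% to 22.6% of it in the 3 libraries and 18.7% to 19.6% in the reference. Only 2 identifiers, ENSG00000280102 and ENSG00000281255, together took 2.45% to 3.16% of it in the 3 libraries and 0.0533% to 0.457% in the reference. Genes listed at 0 numbered 4 to 11 and 9 to 16. Read depth is unknown from FPKM values, so the counting error behind a value cannot be given. All 8 K562 erythroid markers were in the table, and their summed level was 5482 to 5958 FPKM against 5534 to 6298 FPKM. Of 6 fibroblast markers only COL1A2 was in the table, at 2.49 to 3.61 FPKM in the 6 libraries. The epithelial markers EPCAM, KRT8 and KRT18 summed to 191 to 202 FPKM and to 190.3 to 196 FPKM. The part of these cell types in the results was not tested.

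A score was given to each library, the mean log2(FPKM + 1) of the 120 higher genes minus that of the 95 lower genes. The libraries of 22, 28 and 30 h scored 1.92, 1.68 and 1.74, and the reference libraries -0.38 to -0.23, which the choice of genes fixed. Of the libraries not used to choose the genes, those of 16 and 18 h scored 0.46 and 0.42. The remaining 16, which include 32 h, scored from -0.28 at 32 h to -0.07 at 26 h. The 26 h library, flanked by 24 and 28 h, thus scored with the reference rather than with the libraries on its later side.

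**Figure D1:**
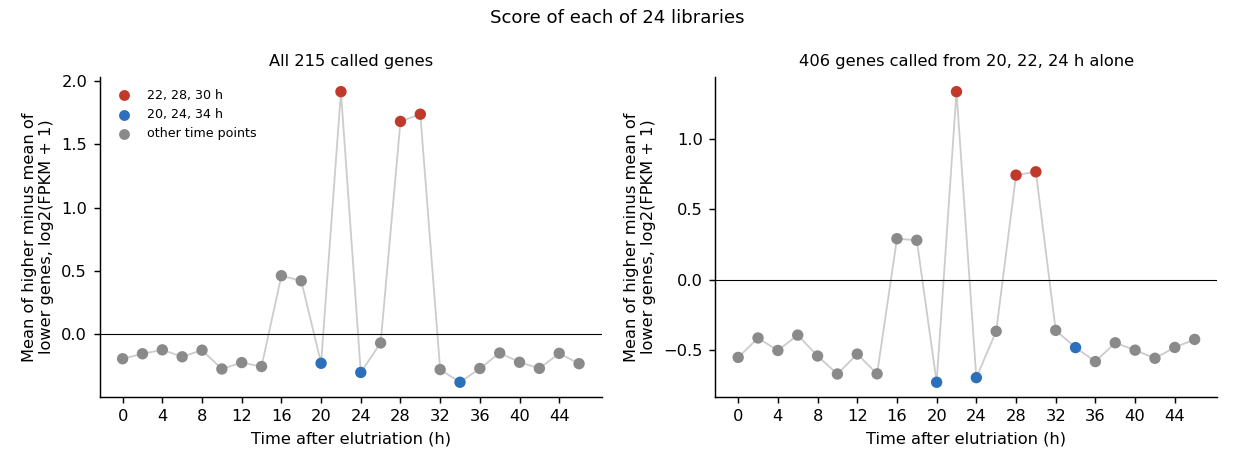
Score of each library (mean log2(FPKM + 1) of higher genes minus that of lower genes) against hours after elutriation, with 1 point per library, for the 215 called genes (left) and for the 406 genes called from 20, 22 and 24 h alone (right). The libraries of 22, 28 and 30 h stand above the others in both panels, and 16 and 18 h lie between.

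To see whether 22 h and the later pair carried the same genes, the difference of 22 h from the mean of 20 and 24 h was compared with that of 28 and 30 h from the mean of 26 and 34 h, which share no library. Across 12253 genes, which are not independent replicates, Pearson's r was 0.54 and Spearman's rho 0.45. From 20, 22 and 24 h alone, 167 genes were called higher and 239 lower. For 91.0% of the 167, the mean of 28 and 30 h was above that of 26 and 34 h (median difference 0.59), as for 53.8% of all genes. For 83.7% of the 239 the mean was below (median difference -0.41), as for 46.2% of all genes. From 26, 28, 30 and 34 h, 189 genes were called higher and 114 lower. The 81 genes higher in both comparisons made up 48.5% of those called at 22 h and 42.9% of those called at 28 and 30 h, and the 78 lower in both made up 32.6% and 68.4%. Only 9 genes were called in opposite directions. As the 3 libraries were picked for being alike, these shares describe how far the likeness goes. With the 406 genes called from 20, 22 and 24 h, the libraries of 28 and 30 h scored 0.74 and 0.76, those of 16 and 18 h 0.29 and 0.28, and the remaining 16 outside the 6 no more than -0.36.

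**Figure D2:**
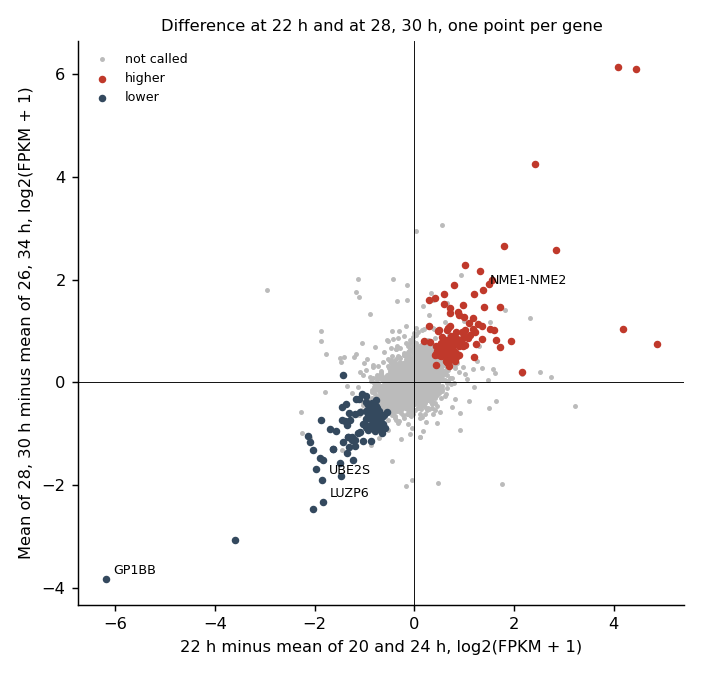
Difference at 22 h from 20 and 24 h (horizontal) against that at 28 and 30 h from 26 and 34 h (vertical), both on the log2(FPKM + 1) scale, with 1 point per gene for 12253 genes, of which 120 were called higher and 95 lower. The called genes lie mostly in the upper right and lower left, with GP1BB the lowest at -6.18 and -3.83.

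The levels of most called genes at 22, 28 and 30 h were also outside those of the 16 other time points (leaving out 16 and 18 h). For 80 of the 120 higher genes, 66.7%, all 3 values exceeded all 16, and for 64 of the 95 lower genes, 67.4%, all 3 lay below all 16. Of all genes, 4.06% and 1.67% did so, but the called genes were chosen with these 3 libraries. At 16 and 18 h many genes departed, and both values were above the 16 for 32.4% of all genes and below them for 20.6%. They were above for 30 of the 120 higher genes and below for 50 of the 95 lower genes, 25% and 52.6%. The median distance of the lower genes from the median of the 16 was -0.83 at 22, 28 and 30 h and -0.81 at 16 and 18 h, but that of the higher genes was 0.75 and -0.12. The lower genes were thus low at 16 and 18 h as well, on the median, and the higher genes were not high there.

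Among protein-coding genes with a symbol and averaging 10 FPKM or more, NME1-NME2 had the largest difference upward, at 1.70. The identifier ENSG00000259316, also typed as protein-coding but without a symbol, had a larger one, 3.71. NME1-NME2 is the readthrough transcript that joins NME1 and NME2, neighbouring genes of nucleoside diphosphate kinases, which balance the nucleoside triphosphate pools. NME1-NME2 was at 141, 131 and 147 FPKM at 22, 28 and 30 h and at 54.0, 53.5 and 26.3 FPKM at 20, 24 and 34 h. The other 16 time points lay between 10.6 and 72.9 FPKM, and 16 and 18 h at 0.92 and 0.37 FPKM. NME2 itself was lower, with 292, 334 and 364 FPKM against 496, 490.4 and 511 FPKM, a difference of -0.60. NME1 differed by -0.07, with 263, 267 and 269 FPKM against 299, 287 and 257 FPKM. The NME2 coding sequence of 456 bases is contained whole in 2 of the 3 NME1-NME2 transcripts of GENCODE, and the coding sequences of NME1 and NME2 are 80.9% identical over 456 bases. The readthrough took 32.6%, 28.2% and 28.8% of the summed FPKM of NME2 and NME1-NME2 at 22, 28 and 30 h and 4.90% to 9.84% at 20, 24 and 34 h, and their sum differed by -0.21.

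GP1BB, which encodes the beta chain of platelet glycoprotein Ib, had the largest difference downward, at -4.64. It was at 0.0011 FPKM at 22 h and at 8.38 and 1.60 FPKM at 28 and 30 h, against 73.9, 69.7 and 70.2 FPKM at 20, 24 and 34 h. At 26 h, between the low libraries, it was at 68.6 FPKM, and the 16 other time points ranged from 41.6 to 96.5 FPKM. The values of 16 and 18 h were also low, at 9.75 and 6.68 FPKM. GP1BB lies on the strand of SEPTIN5, a septin gene directly before it, and all 50-base stretches of its longest transcript also occur in transcripts of another gene, although its coding sequence of 618 bases is whole in none of the 13 SEPTIN5 transcripts. SEPTIN5 was at 151, 160.0 and 149 FPKM against 151, 137 and 148 FPKM, a difference of 0.08, so the neighbour's level did not follow.

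**Figure D3:**
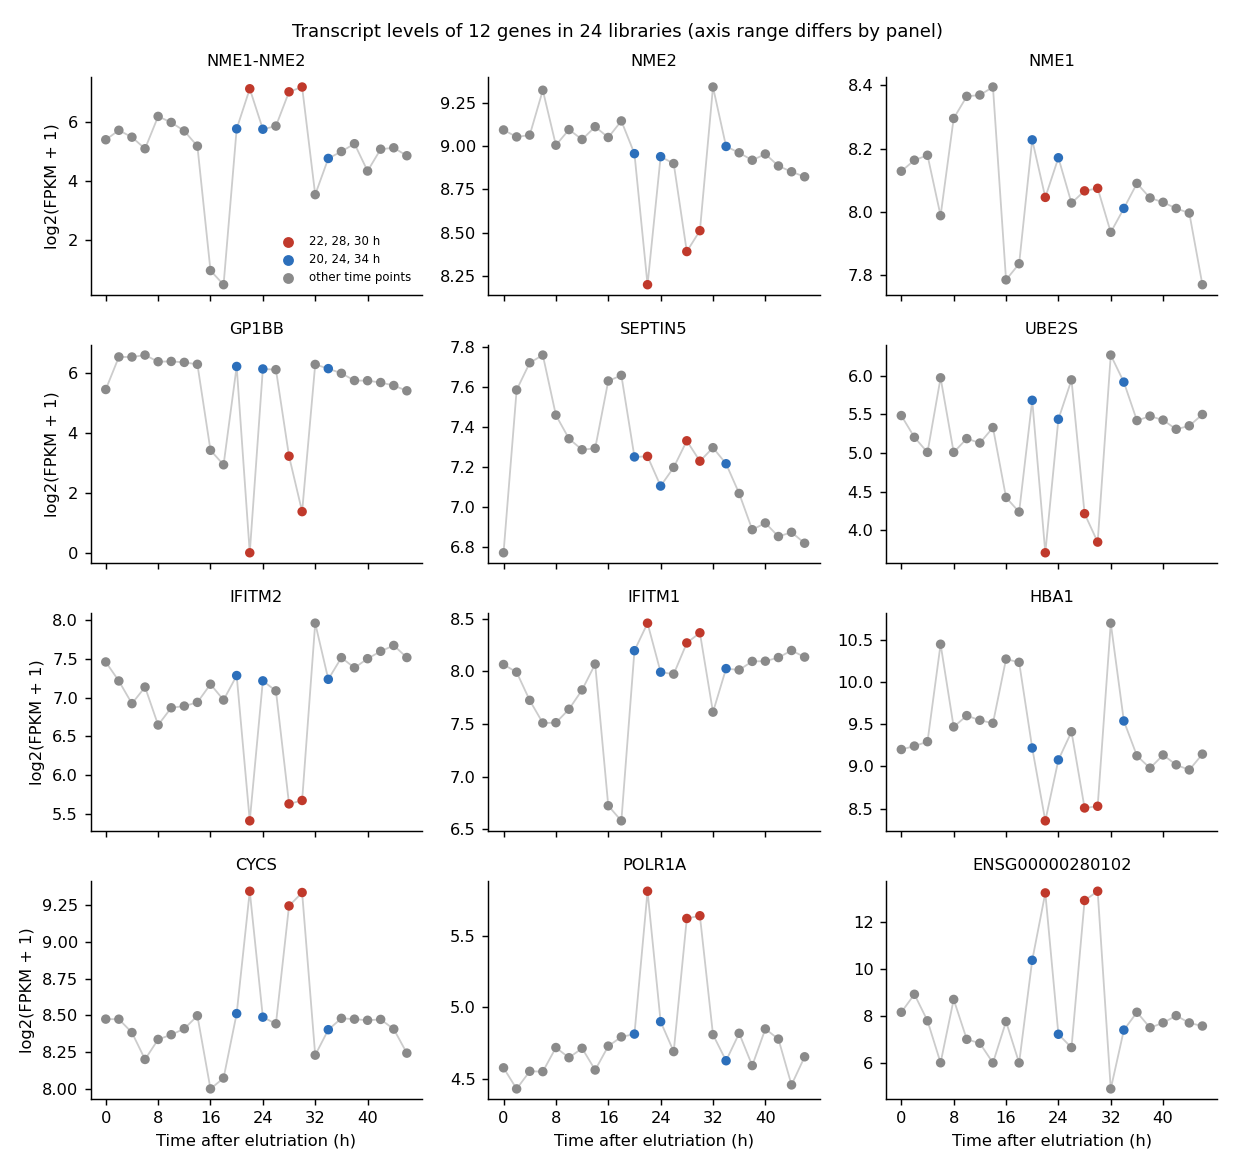
Transcript levels, as log2(FPKM + 1), of 12 genes against hours after elutriation, with 1 point per library and 22, 28 and 30 h in red and 20, 24 and 34 h in blue. NME1-NME2, CYCS, POLR1A and ENSG00000280102 stand above at 22, 28 and 30 h, NME2, GP1BB, UBE2S, IFITM2 and HBA1 below, and NME1 and SEPTIN5 show little difference (axes differ between panels).

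The coding starts of 3 lower and 3 higher genes are shown because GC content differed between the called groups, and they were picked for that contrast. Each is the first 60 coding bases of the gene's GENCODE transcript with the longest coding sequence, 5′ to 3′, with G and C in capitals.
GP1BB: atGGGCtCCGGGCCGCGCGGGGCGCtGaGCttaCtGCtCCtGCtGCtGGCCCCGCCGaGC
HES4: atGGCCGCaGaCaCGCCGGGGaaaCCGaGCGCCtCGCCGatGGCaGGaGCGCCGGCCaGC
TMEM160: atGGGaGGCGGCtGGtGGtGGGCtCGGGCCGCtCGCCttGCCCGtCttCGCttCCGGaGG
CYCS: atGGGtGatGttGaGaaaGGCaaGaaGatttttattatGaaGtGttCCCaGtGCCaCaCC
RPS23: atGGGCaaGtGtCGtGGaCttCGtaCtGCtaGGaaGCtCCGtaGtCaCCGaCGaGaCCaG
GNL3L: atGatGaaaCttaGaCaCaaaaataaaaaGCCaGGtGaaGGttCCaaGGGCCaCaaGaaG
Over their whole coding sequences G and C made up 77.3% in GP1BB, 75.3% in HES4 and 73.2% in TMEM160, which were lower, and 44.8% in CYCS, 45.5% in RPS23 and 52.0% in GNL3L, which were higher. Higher protein-coding genes as a group were not poorer in GC content than all protein-coding genes, on the median. Not all named genes followed the contrast shown. TLE3, which was higher, had 59.9%, IFITM2, which was lower, had 58.3%, and the transcript of LUZP6, which was lower, had 35.6%. The first 60 coding bases of SPCS2, which was higher, held 68.3% G and C, and those of UBE2S, which was lower, 56.7%, as in RPS23.

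The other protein-coding genes with a symbol and the largest differences downward were LUZP6, UBE2S, IFITM2, TMEM160, HES4, NDUFAF8 and PDF, from -2.16 to -1.17. UBE2S, the ubiquitin-conjugating enzyme that extends chains for the anaphase-promoting complex, was at 12.1, 17.6 and 13.4 FPKM against 50.3, 42.3 and 59.4 FPKM. HES4, a transcription factor of the hairy and enhancer of split family, was at 3.13, 7.44 and 6.47 FPKM against 14.7, 16.98 and 19.6 FPKM. NDUFAF8, an assembly factor of respiratory complex I, was at 31.7, 37.7 and 38.4 FPKM against 82.2, 77.5 and 107 FPKM. In each of these 7 genes all 3 values were below the lowest of the 16 other time points.

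LUZP6 and IFITM2 are 2 genes of this group with close partners in the table. LUZP6, a short open reading frame of 177 bases that is contained whole in 1 of the 2 transcripts of MTPN, was at 10.5, 6.19 and 6.96 FPKM against 39.9, 40.4 and 33.4 FPKM. MTPN, which encodes the ankyrin-repeat protein myotrophin, differed by 0.09. IFITM2, an interferon-induced membrane protein that restricts virus entry, was at 41.7, 48.6 and 50.2 FPKM against 155, 148 and 149.6 FPKM. Its neighbour IFITM1 differed by 0.29, in the other direction, and IFITM3 by 0.10 with values that overlapped the reference.

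Upward, the protein-coding genes with a symbol after NME1-NME2 were SPCS2, FMC1-LUC7L2, POLR1A, TLE3, CYCS, RPS23 and GNL3L, from 1.14 to 0.82. SPCS2, a subunit of the signal peptidase complex, was at 49.1, 42.4 and 47.3 FPKM against 20.5, 20.3 and 20.2 FPKM. POLR1A, the largest subunit of RNA polymerase I, was at 55.2, 48.2 and 48.9 FPKM against 27.1, 28.8 and 23.7 FPKM, and the 16 other time points lay between 20.5 and 27.8 FPKM. CYCS, cytochrome c of the respiratory chain, was at 648, 604 and 644 FPKM against 364, 358 and 338 FPKM. The within-set SD of CYCS was 0.06 on the log2 scale against a difference of 0.84, and the 16 other time points ranged only from 294 to 361 FPKM. All 7 of these genes exceeded the 16 other time points at 22, 28 and 30 h.

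FMC1-LUC7L2, a readthrough of FMC1 (a complex V assembly factor) and LUC7L2 (a U1 snRNP-associated splicing factor), was at 42.05, 39.5 and 41.1 FPKM against 21.3, 17.9 and 19.5 FPKM. LUC7L2 differed by 0.05 and FMC1 by -0.32. Of 158 genes with a readthrough transcript in the annotation, 11 were called higher, 6.96%, and 5 lower, 3.16%.

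The largest differences of all were those of the identifiers ENSG00000280102 and ENSG00000281255, at 4.84 and 4.67, which have no name in the tables used and no entry in GENCODE 29. ENSG00000280102 was at 9771, 7810.4 and 10275 FPKM at 22, 28 and 30 h and at 1332, 148 and 168 FPKM at 20, 24 and 34 h. Outside the 6 libraries its highest value was 486 FPKM, so 20 h was the next highest library. ENSG00000281255 was at 5510.2, 4484 and 6158 FPKM, again with 20 h next at 843 FPKM. Together they made up 2.45% to 3.16% of all FPKM at 22, 28 and 30 h, 0.457% at 20 h and at most 0.164% elsewhere.

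A larger share of small RNAs than of all genes was called. Of 161 small nucleolar, Cajal body, nuclear, micro and other small RNAs, 13 were higher, 8.07%, and 8 were lower, 4.97%. FPKM of such short transcripts rest on few bases, and 162 tested genes were shorter than 200 bases. SCARNA9, a guide RNA for modifying spliceosomal RNAs that GENCODE 29 types as antisense and that is outside this count, was at 39.8, 35.1 and 38.6 FPKM against 12.5, 14.1 and 17.5 FPKM. SNORD36A, an intron-encoded guide RNA in RPL7A, was at 17.8, 38.6 and 28.9 FPKM against 44.5, 38.8 and 45.6 FPKM, so that 28 h was barely below the reference. SNORD100 was at 6.15 FPKM at 22 h, but at 15.6 and 15.4 FPKM at 28 and 30 h it lay just under the 15.9 to 19.7 FPKM of the reference. SNORD36A was called lower at -0.64, whereas SNORD100, at -0.54, missed the 1.5-fold limit and was not called. Neither reached that limit in its difference at 28 and 30 h.

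A pair of annotated small nucleolar RNAs of 1 family is shown because both members were higher. They have no symbol, lie on chromosomes X and 11, and are 70 bases long, and capitals mark the 5 positions at which they differ.
ENSG00000201882: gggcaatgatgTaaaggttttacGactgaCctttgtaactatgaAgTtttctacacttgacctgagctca
ENSG00000273885: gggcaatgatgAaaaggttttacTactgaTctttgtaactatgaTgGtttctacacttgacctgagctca
ENSG00000201882 was at 203, 148 and 187 FPKM against 74.8, 87.5 and 32.9 FPKM. ENSG00000273885, which lies within SCARNA9 on the same strand, was at 127, 142 and 133 FPKM against 66.7, 79.7 and 30.0 FPKM. For both, the 3 values were above all 16 other time points, while at 16 and 18 h neither exceeded 3.16 FPKM. The pair was chosen after its values were seen.

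Pseudogenes were also over the background in both directions, with 20 of 432 higher, 4.63%, and 14 lower, 3.24%. Of the 177 processed pseudogenes, 17 were higher, 9.60%, and 10 lower, 5.65%. LDHAP7, a copy of lactate dehydrogenase A, was at 22.0, 17.7 and 19.5 FPKM against 8.76, 7.27 and 9.79 FPKM, whereas LDHA differed by 0.23. RPS13P2 was at 5.19, 5.43 and 5.78 FPKM against 16.3, 13.6 and 14.9 FPKM, whereas its source gene RPS13 showed no difference to 2 decimals. MTCYBP18, a nuclear copy of mitochondrial cytochrome b, differed by 1.01 and PI4KAP2 by -0.75, against -0.04 for PI4KA. In the other gene types named by size, the host transcript MIR142HG differed by 1.04, with 73.7, 68.6 and 78.8 FPKM against 35.3, 37.4 and 33.2 FPKM.

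A smaller share of protein-coding genes was called, with 54 of 10386 higher, 0.520%, and 57 lower, 0.549%. Long noncoding RNAs gave 19 of 1112 higher, 1.71%, and 11 lower, 0.989%. Of the 105 identifiers not in GENCODE 29, 10 were higher, 9.52%, and 3 lower, 2.86%. The median difference varied little between types, from 0.03 in protein-coding genes to 0.12 in small RNAs, so the types differed in the share of genes at the extremes rather than in the middle. Called genes were also less abundant, with a median of 5.98 FPKM for higher and 8.14 FPKM for lower genes against 13.8 FPKM for all.

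**Figure D4:**
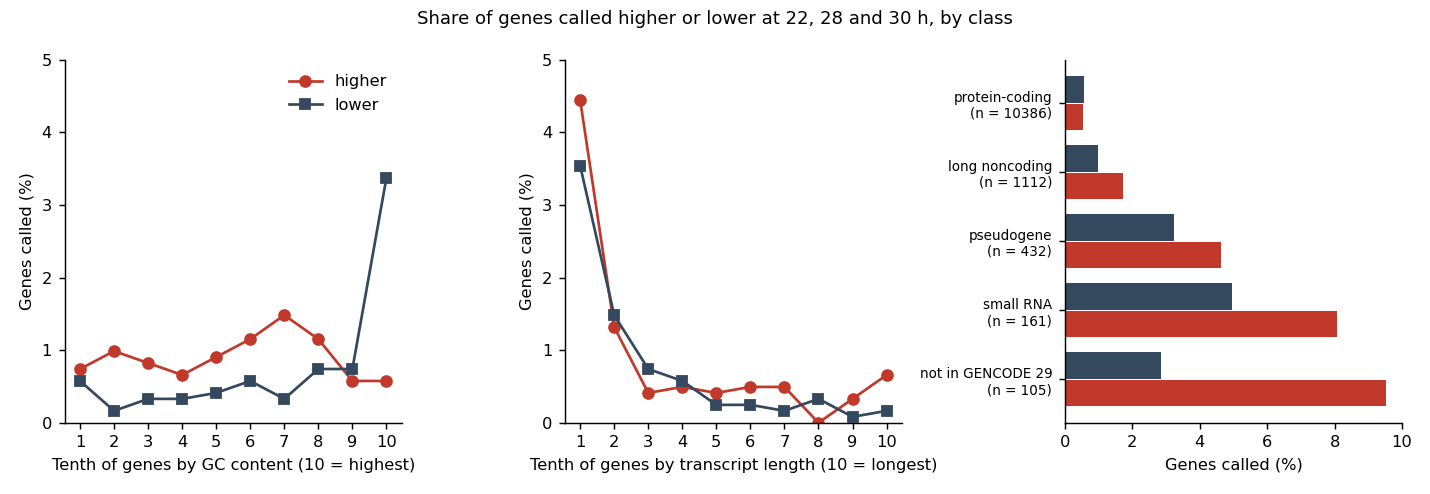
Percentage of genes called higher (red) and lower (dark) at 22, 28 and 30 h in bins of 10% of the genes by GC content (left) and transcript length (middle), and by gene type (right, with the number of genes). Lower genes reach 3.37% in the bin of highest GC content, and both directions are highest by length, 4.44% and 3.54%, in the shortest bin.

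Calls were also set against sequence shared with other genes. Of the 256 genes with over 90% of their 50-base stretches in transcripts of another gene, 7.03% were higher and 5.47% lower, against 0.540% and 0.629% of the 4448 genes with none. Of 22 pairs of a lower gene and a gene overlapping it on the same strand, the partner had a difference of opposite sign in 18. In the 37 such pairs of higher genes it did in 12. These pairs held 17 lower and 26 higher genes, some in several pairs, and 58.8% of all genes had a difference above 0. How the counting handled strand and shared stretches is not given in the sources used here, so values of genes such as GP1BB, LUZP6 and NME1-NME2 are uncertain as levels of those genes.

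GC content of the longest transcript had a Spearman rho of -0.13 with the difference across 12148 genes, as a description. The 3 libraries did not share this trend. Against the mean of the libraries from 20 to 34 h, rho was -0.39, -0.01 and 0.17 for the libraries of 22, 28 and 30 h, and 0.26 for that of 34 h. Without the 22 h library, rho of the difference was 0.03. The lower calls were nevertheless concentrated at high GC content. The 10% of genes with the highest GC content, from 61.3% to 86.4%, held 41 of the 95 lower genes, 3.37% of its 1215 genes, whereas no other such bin passed 0.741%. Without the 22 h library it held 33 of 97. Lower protein-coding genes had a median GC content of 66.0% and higher ones 50.8%, against 47.96% for all protein-coding genes. The higher ones were thus not poor in GC content, on the median, and the departure from all genes lay with the lower ones. Among protein-coding genes in that bin and under 1500 bases, 16 of 158 were lower, 10.1%, against 21 of 956 longer ones, 2.20%. By length, the shortest 10% of genes (up to 1013 bases) held 54 of the 120 higher genes and 43 of the 95 lower genes.

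Lists of genes by function are given by their counts and medians. Over all genes the median was 0.03, and 0.979% were called higher and 0.775% lower. At these shares a list of few genes can hold no call. Of 32 lists, 14 had a called member and 18 had none. In most of the lists that did, only 1 or 2 members were called. Uncalled members could still lean one way. Of 35 proteasome subunits, 21 lay above the reference at any size and 2 below. Of all genes, 16.7% lay above and 8.03% below.

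Of 84 cytosolic ribosomal proteins, 3 were called higher and none lower, the median was 0.14, and 40 lay above the reference at any size against 7 below, where 16.7% of all genes lay above and 8.03% below. RPS23 was at 1006, 918 and 975 FPKM against 619, 613 and 417 FPKM, and RPL41 was at 111, 96.2 and 111 FPKM against 73.2, 62.8 and 50.6 FPKM. Of 29 genes of nucleolar ribosome assembly, 2 were higher (median 0.12). These were POLR1A and FBL, the methyltransferase fibrillarin, which was at 628, 570.3 and 643 FPKM against 418, 389 and 379 FPKM. The 78 mitochondrial ribosomal proteins had no call and a median of -0.02, with MRPS26 at -0.39 and MRPL41 at -0.39 the largest in size.

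Of 35 proteasome subunits, PSMC3, an ATPase of the base, was higher at 307, 263 and 289 FPKM against 179, 153 and 167 FPKM (0.78). The second largest difference was that of PSMC1, at 0.40, and the 34 others ranged from -0.17 to 0.40. In the CCT chaperonin, whose 8 subunits form a folding chamber in equal numbers, CCT7 differed by 0.51 with 498, 452 and 460.4 FPKM against 335, 319 and 336 FPKM. The 7 other subunits lay between -0.09 and 0.12, with CCT5 next at 0.12. Of 13 SR splicing factors, SRSF3 was called higher at 602, 540.3 and 593 FPKM against 390, 335 and 372 FPKM (0.66), followed by SRSF4 at 0.24.

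**Figure D5:**
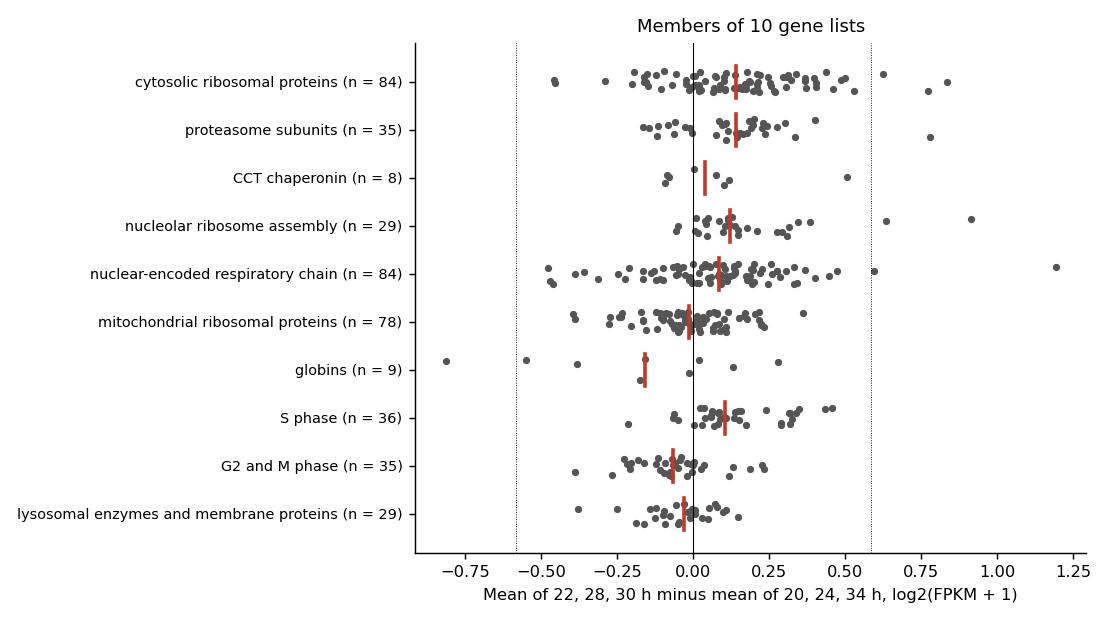
Difference of each member (points) and median (red line) for 10 gene lists, on the log2(FPKM + 1) scale, with dotted lines at 1.5-fold. Most members lie close to 0, with single members such as PSMC3 (0.78) and CCT7 (0.51) apart from their list, and HBA1 (-0.82) the lowest of the globins.

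In the nuclear-encoded respiratory chain, 2 of 84 genes were higher (median 0.08), COX6A1P2, a copy of a cytochrome oxidase subunit, at 1.19 and SDHC, an anchor subunit of succinate dehydrogenase, at 0.59. COX6A1P2 was at a low level, with 5.21, 2.90 and 4.52 FPKM against 1.20, 1.70 and 0.89 FPKM. SDHC was at 66.9, 53.2 and 60.2 FPKM against 45.9, 44.0 and 30.1 FPKM. Of 5 mitochondrially encoded genes in the table, MT-ATP8 was higher at 22.0, 13.9 and 16.1 FPKM against 3.43, 1.30 and 1.92 FPKM (2.54), and MT-CO3 at 8.55, 7.65 and 7.27 FPKM against 2.59, 1.37 and 1.99 FPKM (1.58). MT-ND4L was lower (-0.79), but only at 0.82, 1.22 and 0.47 FPKM against 2.41, 1.94 and 2.03 FPKM. The uncalled members MT-ATP6 and MT-ND4 differed by 0.39 and -0.06. MT-ATP8 and MT-CO3 overlap MT-ATP6 on the same strand, and MT-ND4L overlaps MT-ND4. The called members of this genome thus differed in direction, with the lower one at a low level.

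Of 9 globin genes, HBA1 was lower (-0.82) and HBA2 had the second largest difference (-0.55). Both encode alpha globin, and their coding sequences of 426 bases are identical. HBA1 was at 326, 363 and 368 FPKM against 595, 539 and 743 FPKM, and HBA2 was at 195, 209 and 211 FPKM against 323, 284 and 296 FPKM. The share of HBA1 in their sum was 62.6% to 63.6% at 22, 28 and 30 h and 64.8% to 71.5% in the reference, so both values were low together. Other genes' transcripts hold 84.8% and 89.7% of their 50-base stretches, so the 2 values are not independent. HBZ also lay below the reference, and the other globins overlapped it, from -0.17 for HBQ1 to 0.28 for HBD. The list median was -0.37 at 22 h from 20 and 24 h, and 0.06 at 28 and 30 h from 26 and 34 h. Fewer cells of a kind and less RNA per cell cannot be told apart in bulk samples, and the cause was not tested. The 8 erythroid markers as a list had a median of 0.00, with HBZ at -0.38 and HBG2 at -0.16 the largest, and the 23 erythroid factors and membrane proteins had no call and a median of 0.06, with GYPC at -0.38 and GYPE at 0.31.

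The cell cycle lists had no called gene. The 36 S phase genes had a median of 0.10, with CLSPN at 0.46 and GINS4 at 0.44, and 13 lay above the reference at any size and 1 below. The 35 G2 and M phase genes had a median of -0.07, with CENPA at -0.39 and PLK1 at -0.27, and 1 lay above and none below, beside the 16.7% and 8.03% of all genes. Leaving out each library in turn moved the medians of these lists from 0.05 to 0.16 and from -0.15 to -0.01. Of 30 replication-dependent histone genes, H1-4 was called higher at 0.72, from 5.14, 2.95 and 3.18 FPKM against 1.49, 1.88 and 2.13 FPKM, and H2AC7 had a difference of -0.77 with overlapping values.

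Of 9 nuclear-retained long RNAs, 2 were higher (median 0.30). MALAT1, the abundant RNA of nuclear speckles, was at 1392, 1177 and 1509 FPKM against 851, 556 and 900.5 FPKM, but was also high at 32 h with 1593 FPKM. FTX, a long RNA of the X-inactivation centre, differed by 0.84. Of 20 genes of the integrated stress response and serine synthesis, CEBPB, a basic leucine zipper factor, was lower at 8.13, 9.14 and 9.49 FPKM against 22.9, 18.9 and 21.6 FPKM (-1.15), with CHAC1 next at -0.30. The immediate early genes had no call among 17, with JUND at -0.58 and JUNB at -0.26, and the 22 heat shock chaperones had none either, with HSPA1B at -0.36 and BAG3 at -0.26.

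The small nucleolar RNA host genes had 1 higher member among 26 and a median of 0.20, with SNHG22 at 0.77 and SNHG19 at 0.53. Their median was -0.04 at 22 h from 20 and 24 h, and 0.24 at 28 and 30 h from 26 and 34 h. The 374 ZNF zinc finger genes had 4 higher and 2 lower members, near the shares called among all genes. Their median was 0.04, with ZNF302 at -1.73 and ZNF513 at 0.67. ZNF302 was the largest of the list by far. Antisense long noncoding RNAs had 1 member in each direction among 251, with RCC2-AS1 at -1.62 and LENG8-AS1 at 0.66. No member was called among 19 glycolysis genes, with the glucose transporter SLC2A3 at 0.52 and the hexokinase HK1 at 0.44, or among 21 peroxiredoxins and thiol antioxidants, with PRDX1 at 0.51 and TXNRD1 at 0.24. The lists of lysosomal proteins, tubulins, aminoacyl-tRNA synthetases, cholesterol synthesis and heme synthesis had no call either. Of 6 megakaryocyte and platelet genes, only GP1BB was called, and F2R, a thrombin receptor, was next at -0.21.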

How the data were processed

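The authors aligned reads with STAR and quantified them with Cufflinks (the second major version, per the study's methods) and Cuffnorm, and the submitters' processing notes name GRCh37; exact versions and the annotation are not given in the sources used here. The deposited expression table holds FPKM values. The second deposited table holds a score per gene and library, which appears from its values to be Z-scored and quantile normalized by the authors, and it served only as an alternative. Libraries were assigned to time points from the labels, and 0 columns were left unused. Depth could not be recovered.

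Differences were taken on log2(FPKM + 1), with a filter of a mean of at least 1 FPKM over 24 libraries, in Python with pandas and SciPy. Gene type, length, GC content, overlaps, shared 50-base stretches and sequences came from GENCODE 29 (12180 of 12285 identifiers matched, on another build, so no coordinates are given). The call rule and correlations were tested on simulated data. The libraries, gene lists and rules were chosen with earlier results of these data known. Named were NME1-NME2, GP1BB, the 8 protein-coding genes of largest difference in each direction and 4 of other types, with a mean of at least 10 FPKM, a symbol and values apart from the reference, and the 2 members of largest difference in each list described. Overlap partners, source genes, unnamed identifiers and further list members were added after their values were seen.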

Additional observations from a re-analysis of the deposited data

How the results depend on the processing

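The counts of 120 higher and 95 lower genes stayed within 1.5 times under median centring, upper-quartile scaling, quantile normalization, 26 and 32 h added to the reference, a straight line through the reference, and no filter. The genes themselves changed more. With 26 and 32 h added, 90 of the 120 higher and 79 of the 95 lower genes were still called. Without the 22 h library, 111 and 78 of them were. A pseudocount of 0.1 gave 186 higher genes. A mean of at least 10 FPKM left 47 higher and 43 lower genes of the fewer genes tested, and the stricter 2-fold limit gave 40 and 37. Pearson's r between the 22 h difference and that of 28 and 30 h, 0.54 as reported, was 0.43 with a pseudocount of 0.1 and 0.67 at 10 FPKM or more, and the cause was not tested. Leaving out each of the 6 libraries in turn gave 131 to 164 higher and 97 to 132 lower genes, fewer values having to lie apart, and r of 0.48 to 0.53, with none possible without 22 h. Spearman's rho of GC content with the difference ran from -0.24 without 30 h to 0.031 without 22 h, where its sign reversed, and the cause was not tested. It was -0.16 in the cleaned table, where 114 of the 120 higher and 92 of the 95 lower genes still had values apart from the reference. Alternatives chosen after seeing the data gave 109 higher and 100 lower genes with each library's GC trend removed, and 89 and 66 among genes with at most 50% shared 50-base stretches. All 24 genes named by difference kept their direction under each scaling, pseudocount, reference, left-out library, GC correction and in the cleaned table; the filters and the 2-fold limit do not change a gene's difference. Of the list medians under the alternatives, 54 moved by 0.1 or more and 504 by less. These numbers include the cleaned table, whose medians are differences of scores and not of log2 values. Without 1 library the median of the small nucleolar RNA host genes was 0.13 to 0.28. No paired analysis was possible because each time point had 1 library and no group shared replicate numbers. FPKM values leave the depth, and so the error of single low values, unknown.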

Other observations

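At 16 and 18 h some of the genes named here were displaced in the same direction as at 22, 28 and 30 h and others in the opposite one. UBE2S was at 20.5 and 17.9 FPKM, TMEM160 at 4.67 and 3.21 FPKM, HES4 at 3.92 and 2.46 FPKM and PDF at 5.53 and 4.35 FPKM, all below the 16 other time points, as at 22, 28 and 30 h. LDHAP7, at 47.0 and 48.8 FPKM, and FMC1-LUC7L2, at 63.3 and 60.4 FPKM, were above them in both sets. LUZP6 was at 84.9 and 68.6 FPKM, above the 16 others, where it was low at 22, 28 and 30 h, and CYCS was at 255 and 269 FPKM, below the 16 others, where it was high. MIR142HG, likewise high at 22, 28 and 30 h, was below the 16 others at 16 and 18 h, at 19.98 and 17.9 FPKM. MALAT1 reached 11073 and 12319 FPKM at 16 and 18 h. Across genes, the difference of 16 and 18 h from 12 and 14 h had a Pearson r of 0.07 with that of 22, 28 and 30 h.

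HYPK, a cofactor of the N-terminal acetyltransferase complex, and its same-strand neighbour SERF2 were chosen after their values were seen. HYPK was at 13.4, 21.5 and 21.6 FPKM at 22, 28 and 30 h against 43.2, 30.6 and 35.1 FPKM (-0.93), and SERF2 was at 587, 572 and 639 FPKM against 458, 432 and 474 FPKM (0.40). The identifier ENSG00000259316, typed as protein-coding, which overlaps PCLAF and CSNK1G1, had a difference of 3.71, but did not keep to 22, 28 and 30 h, where it was at 46.7, 33.2 and 43.2 FPKM. It was also at 44.6 FPKM at 26 h, 88.8 FPKM at 32 h and, at its highest, 93.7 FPKM at 6 h, against 0.18, 1.28 and 10.9 FPKM at 20, 24 and 34 h.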
